A study of Homo sapiens with 6 samples.

Results

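Peroxiredoxins, thioredoxins, superoxide dismutases and catalase are among the proteins that clear superoxide and peroxides in human cells, either directly or by keeping the enzymes reduced. The transcripts of 10 of them were followed in U251 cells, an established human glioma line, exposed to the inhaled anesthetic sevoflurane (Sev): PRDX1, PRDX2, PRDX3, PRDX5, PRDX6, TXN, TXN2, SOD1, SOD2 and CAT. They were chosen by gene symbol, and all 10 were found among the 61496 features of the count table, in 11 rows, because SOD2 has 2 identifiers. Counts over the 10 genes use the SOD2 row with more counts, and the other row is given on its own. Total RNA was sequenced with strand-specific adapters from 3 libraries of untreated control cells and 3 libraries of cells kept under Sev gas for 2 h. Both groups came from the same line, carried no introduced genetic change by their labels, and were grown in the same serum-containing medium. The deposited protocol lists Sev at 1.7%, 3.4% and 5.1% and assigns none of these to a library. The legend of the study's volcano plot names the highest of them. Nothing in the labels says that the 3 libraries of a group were separate cultures, so the p-values measure only the spread between these libraries, which may be technical.

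Superoxide leaking from respiration or made by oxidases is turned into hydrogen peroxide by superoxide dismutases, SOD1 in the cytosol with copper and zinc, and SOD2 in the mitochondrial matrix with manganese. Hydrogen peroxide is then removed by catalase in peroxisomes and by peroxiredoxins, whose reactive cysteine is oxidized in each cycle. Thioredoxin (TXN in the cytosol, TXN2 in mitochondria) reduces most peroxiredoxins again and is itself reduced by thioredoxin reductase with electrons from NADPH.

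Library totals were 38624292 to 46318311 counts, and the first principal component held 69.0% of the variance and separated the groups. Of 27514 features tested with edgeR, 43.7% had an adjusted p under 0.05, 22.1% higher and 21.5% lower in Sev. The summed FPKM (fragments per kilobase, scaled by library size) of 8 astroglial or glioma markers was 1215 to 1423 in control and 1225 to 1343 after Sev, with CHI3L1 at 0 to 14 counts. VIM made up most of this sum, at a mean of 905 and 918 FPKM, and single markers did move: S100B had a log2 fold change of -1.10 (adjusted p = 0.00215), SOX2 of -0.72 (0.000367), CD44 of 0.97 (0.000174) and EGFR of 0.27 (0.0451). GFAP, VIM and NES did not pass the test. Those of neuron markers were 2.27 to 2.68 and 3.03 to 3.07, with STMN2 at 0. Those of microglia or leukocyte markers were 0.635 to 0.661 and 0.821 to 1.20, with AIF1 at 0. Endothelial markers summed to 0.778 to 1.02 and 0.756 to 0.977, and oligodendrocyte markers to 0.487 to 0.801 and 0.556 to 0.607. The neuron and leukocyte sums were thus higher in every Sev library, and their part in the results was not tested. Most of the neuron sum was SYT1, at a mean of 1.79 and 2.36 FPKM (log2 fold change 0.55, adjusted p = 0.00521). RBFOX3, lower in mean, and SNAP25 did not pass the test. Nearly all of the leukocyte sum was CSF1R, at a mean of 0.628 and 0.932 FPKM (log2 fold change 0.72, adjusted p = 0.0201). All values are relative to the RNA of the library, so less RNA per cell and fewer cells cannot be told apart.

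Of the 10 genes, 5 passed the test (50% against the 43.7% of all tested features), and all 5 were higher after Sev: PRDX1, PRDX6, TXN, SOD1 and SOD2. With a library left out, 1 (without control 3 or Sev 1), 2 (without control 1), 3 (without Sev 2 or Sev 3) or 4 (without control 2) were called higher. None was called lower by edgeR or by DESeq2 (0 each), while at an unadjusted p under 0.05 edgeR gave 5 higher and 1 lower, CAT, beside 26.1% of all features higher and 26% lower. The study's own threshold, a log2 fold change beyond 1 with an unadjusted p under 0.05, was passed by 0 of the 10 genes in edgeR and in DESeq2, against 11.4% of tested features higher and 12% lower. The other SOD2 row, with 17 to 55 counts and reads that overlapping genes may share, did pass it. The median log2 fold change of the 10 genes was 0.17, beside -0.0056 for all features and 0.038 for protein-coding genes. By library size only it was 0.025, beside a median of -0.15 for all features. The normalized counts of the groups did not overlap for 5 genes higher and 1 lower, where 56.5% of all features did not overlap (28.3% higher and 28.2% lower). Without TMM (trimmed mean of M-values) factors, by library size only, 2 of the genes were called higher (PRDX1 and TXN) and 2 lower (PRDX2 and CAT), and all features then split into 4665 higher and 7502 lower, against 6094 and 5920 with TMM. The calls of PRDX6, SOD1 and SOD2 therefore depend on the scaling, and that of TXN was lost in 2 of the 3 fits of limma to FPKM.

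**Figure D1:**
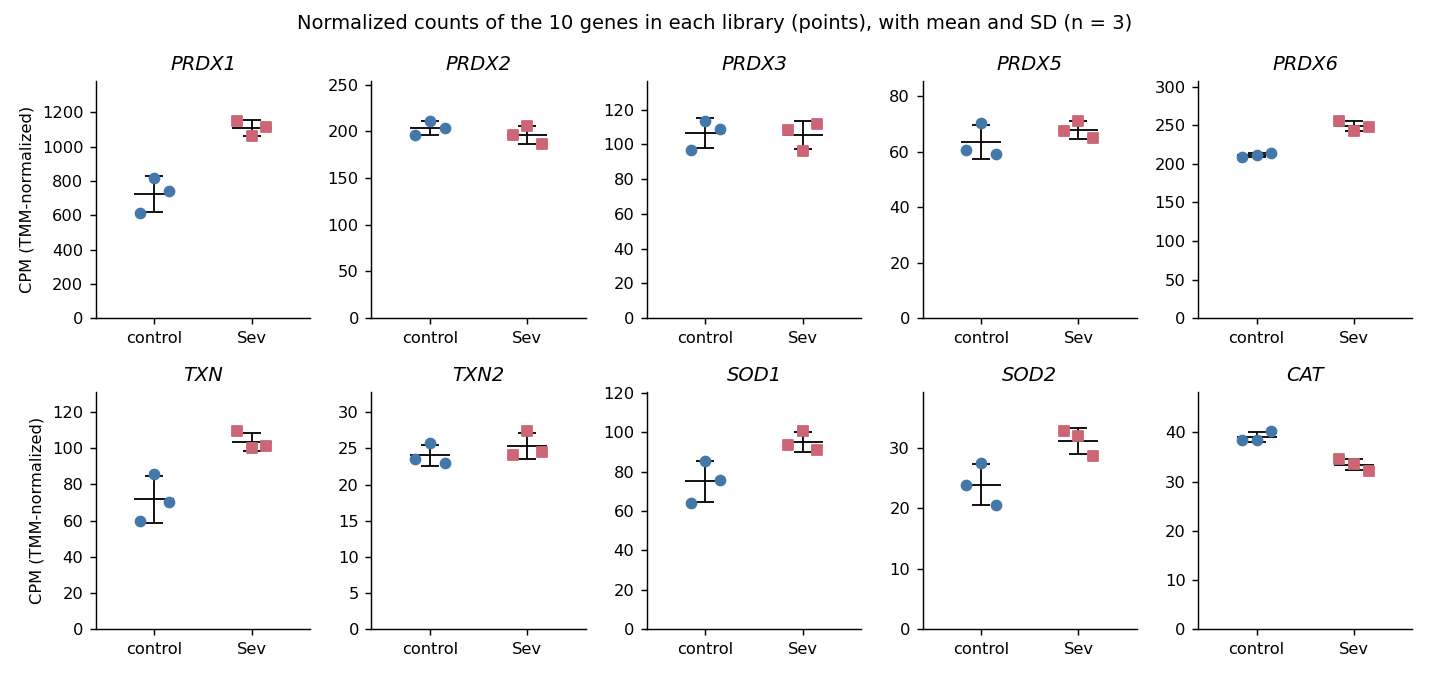
Each panel plots the normalized count (CPM with TMM factors, linear axis from 0) of a gene in the 3 control libraries (circles) and the 3 Sev libraries (squares), with the mean and SD, n = 3; SOD2 is the row with the larger counts. PRDX1, PRDX6, TXN, SOD1 and SOD2 lie higher and CAT lower in all 3 Sev libraries, while the groups overlap for PRDX2, PRDX3, PRDX5 and TXN2.

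PRDX1, the most abundant cytosolic peroxiredoxin, showed the largest rise among the 10 genes. Its counts were 25967, 32373 and 35890 in the control libraries and 43390, 39863 and 44083 in the Sev libraries, so even the lowest Sev library was above the highest control. As normalized counts (CPM, counts scaled to library size times the TMM factor) these were 614, 817 and 739 against 1152, 1061 and 1113, or 723 ± 103 against 1109 ± 45.6 (SD, n = 3). The log2 fold change was 0.62 with a standard error of 0.11 (1.53-fold, adjusted p = 0.00401). The call held without each library in turn, with log2 fold changes of 0.50 to 0.71, and in all 12 other settings tried, where it was 0.48 to 0.63. PRDX1 (ENSG00000117450) lies on the minus strand at chr1:45511036-45523047 of GRCh38. It shares 379 exonic bases with MMACHC on the opposite strand, which had 499 to 1243 counts, far fewer than PRDX1.

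PRDX2, the other abundant cytosolic peroxiredoxin, had no such difference. Its CPM was 196, 212 and 203 in the control libraries and 197, 206 and 186 in the Sev libraries. The groups overlapped, with a log2 fold change of -0.054 and a standard error of 0.075 (adjusted p = 0.587). By library size only it was -0.20 (adjusted p = 0.0349). PRDX2 (ENSG00000167815) lies at chr19:12796820-12801859 on the minus strand.

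PRDX6, the 1-Cys peroxiredoxin that uses glutathione rather than thioredoxin and also acts on phospholipid peroxides, was higher by a small amount. Its CPM was 209, 212 and 214 in the control libraries and 256, 243 and 248 in the Sev libraries. Both groups were tight, and the lowest Sev library was above the highest control. The log2 fold change was 0.24 with a standard error of 0.067 (1.18-fold, adjusted p = 0.0237). This call held only without Sev 2 (adjusted p = 0.0277) when single libraries were left out; without control 1, control 2, control 3, Sev 1 or Sev 3 it was 0.0602, 0.0611, 0.0828, 0.0964 and 0.0501. By library size only the log2 fold change was 0.094 (adjusted p = 0.302). PRDX6 (ENSG00000117592) lies at chr1:173477266-173488807 on the plus strand.

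The mitochondrial peroxiredoxins PRDX3 and PRDX5 did not pass the test. PRDX3 (ENSG00000165672, chr10:119167703-119178833, minus strand) had a CPM of 96.8, 114 and 109 in the control libraries and 108, 96.5 and 112 in the Sev libraries, and its log2 fold change was -0.014 with a standard error of 0.095 (adjusted p = 0.916). Its 4 named copies held 7.72% to 9.74% of the counts of gene and copies together in control and 5.43% to 6.49% after Sev, and summed with them the log2 fold change was -0.057. PRDX5, which is also found in peroxisomes and the cytosol (ENSG00000126432, chr11:64318088-64321811, plus strand), had a CPM of 60.7, 70.4 and 59.0 against 67.3, 71.2 and 64.7. Its log2 fold change was 0.097 with a standard error of 0.095 (adjusted p = 0.438) and turned to -0.045 by library size only.

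TXN, the cytosolic thioredoxin, had the next largest rise of the 10 genes. Its CPM was 59.5, 85.6 and 70.1 in the control libraries and 109, 100.3 and 101 in the Sev libraries. The control libraries were more spread than the Sev libraries, and the groups did not overlap. The log2 fold change was 0.53 with a standard error of 0.13 (1.45-fold, adjusted p = 0.0133), and 0.40 to 0.67 without single libraries. The adjusted p was 0.0508 without control 3 and 0.0526 without Sev 1, and under 0.05 without each of the others. With limma it was 0.0678 on log2(FPKM + 0.1) and 0.0823 on log2(FPKM + 1) without a filter. TXN (ENSG00000136810) lies at chr9:110243811-110256640 on the minus strand. Its 7 named copies held 1.46% to 3.49% of the summed counts, and with them added the log2 fold change was 0.51 (adjusted p = 0.0143).

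TXN2, the mitochondrial thioredoxin (ENSG00000100348, chr22:36467036-36482030, minus strand), had a CPM of 23.5, 25.7 and 23.0 in the control libraries and 24.2, 27.4 and 24.6 in the Sev libraries. The groups overlapped. Its log2 fold change was 0.077 with a standard error of 0.10 (adjusted p = 0.566), and it turned to -0.066 by library size only. A single named copy held 6.69% to 8.82% of the counts of both in control and 3.65% to 5.26% after Sev, and summed with it the log2 fold change was 0.026.

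SOD1, the copper and zinc dismutase (ENSG00000142168, chr21:31659622-31668931, plus strand), had a CPM of 64.3, 85.5 and 75.6 in the control libraries and 93.5, 101 and 90.9 in the Sev libraries. All Sev libraries were above all controls, by little for control 2. The log2 fold change was 0.34 with a standard error of 0.11 (1.26-fold, adjusted p = 0.0422). Leaving out control 2 kept the call (adjusted p = 0.0220), while without control 1, control 3, Sev 1, Sev 2 or Sev 3 the adjusted p was 0.112, 0.110, 0.0971, 0.104 and 0.0646. By library size only the log2 fold change was 0.20 (adjusted p = 0.138), and with protein-coding genes alone in the fit the adjusted p was 0.0521.

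SOD2, the manganese dismutase, was read from the row ENSG00000112096 (chr6:159669057-159745186, minus strand), with a CPM of 23.9, 27.5 and 20.5 in the control libraries and 32.8, 32.0 and 28.8 in the Sev libraries. The groups did not overlap. The log2 fold change was 0.38 with a standard error of 0.13 (1.30-fold, adjusted p = 0.0409). The call held without control 2 (adjusted p = 0.0233) or Sev 3 (0.0480), while without control 1, control 3, Sev 1 or Sev 2 the adjusted p was 0.104, 0.139, 0.126 and 0.0878. By library size only the log2 fold change was 0.24 (adjusted p = 0.143), and with protein-coding genes alone in the fit the adjusted p was 0.0570. The other SOD2 row, ENSG00000285441 (chr6:159679119-159762529), held 36, 23 and 17 counts against 55, 47 and 55. It shares 939 exonic bases on its own strand with SOD2-OT1, which had 0, 24 and 34 counts in control and 0, 0 and 0 after Sev, so SOD2-OT1 was lower where this row was higher. It also shares 845 with the main SOD2 row, and exons with ACAT2 and WTAP on the opposite strand, and how the counting split such reads was not tested. Its log2 fold change was 1.21 with a standard error of 0.33 (adjusted p = 0.0207). That call was lost without control 2 (0.0587), control 3 (0.0553) or Sev 1 (0.0623). With both rows summed, SOD2 had a log2 fold change of 0.41 (adjusted p = 0.0321). The main row shares 298 exonic bases with WTAP, whose counts ranged from 2959 to 3706 in control and from 3844 to 4964 after Sev. How the counting treated strand is not given in the sources used here, so the part of WTAP reads in the SOD2 values was not tested.

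CAT, catalase, was the single gene of the 10 whose normalized counts were lower in every Sev library. Its CPM was 38.5, 38.5 and 40.3 in the control libraries and 34.5, 33.7 and 32.2 in the Sev libraries. The log2 fold change was -0.22 with a standard error of 0.082, and the adjusted p of 0.0567 missed the threshold. It did not pass without any single library (0.0869 to 0.166), and it did pass in 6 of 12 other settings, among them library size only (-0.37, adjusted p = 0.00974) and with protein-coding genes alone in the fit (adjusted p = 0.0253). CAT (ENSG00000121691) lies at chr11:34438925-34472062 on the plus strand, and no copy of it was named in the annotation.

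**Figure D2:**
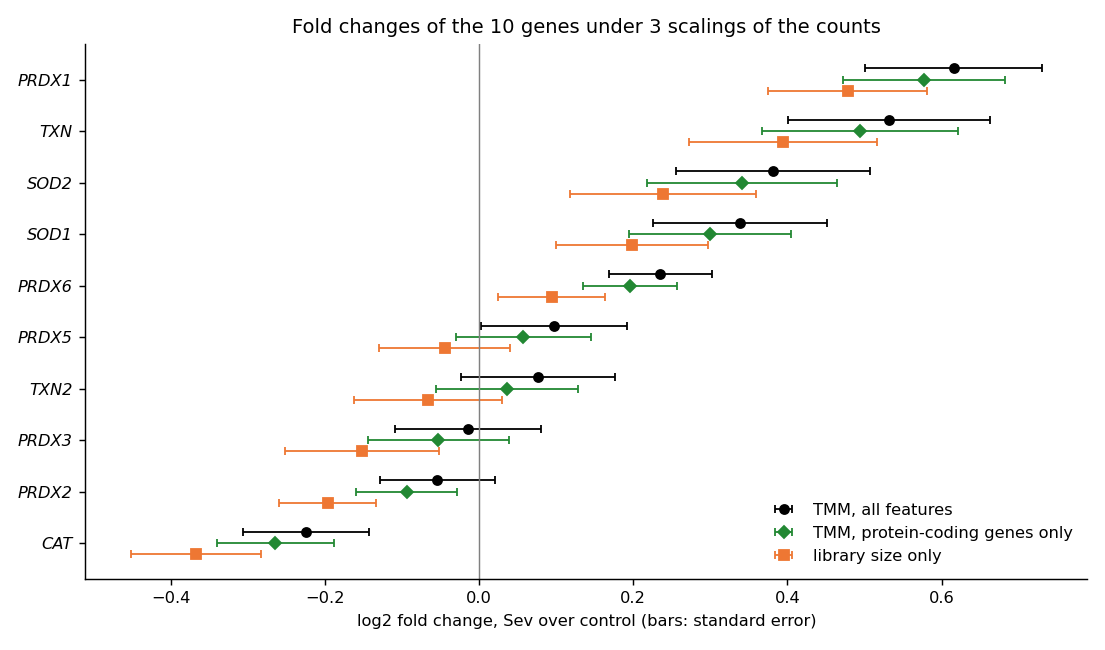
The x axis gives the log2 fold change of Sev over control and each row is a gene; markers and bars are the edgeR estimate and its standard error with TMM factors over all features (circles), TMM over protein-coding genes only (diamonds) and library size only (squares). The order of the genes hardly moves, while library size only shifts every gene to the left, and PRDX5 and TXN2 cross 0.

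Scaling by library size only moved the median of all features to -0.15. Relative to that median, which is itself a rescaling of all genes, PRDX1 was at 0.63, TXN at 0.54, SOD2 at 0.39, SOD1 at 0.35, PRDX6 at 0.24, PRDX5 at 0.10, TXN2 at 0.081, PRDX3 at -0.0044, PRDX2 at -0.049 and CAT at -0.22.

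Ratios of a pair of genes within a library do not depend on the scaling between libraries. For this 6 pairs were chosen after the values were seen, and they are given as descriptions, since the smallest p that exact permutation allows with 3 libraries in each group is 0.1. The log2 count ratio of PRDX1 to PRDX2, the cytosolic peroxiredoxins, was 1.65, 1.95 and 1.86 in the control libraries and 2.55, 2.37 and 2.58 in the Sev libraries, a difference of 0.68 with no overlap. That of cytosolic TXN to mitochondrial TXN2 was 1.34, 1.74 and 1.61 against 2.18, 1.87 and 2.04, a difference of 0.47. The pair that differed the most was PRDX1 over CAT, at 3.99, 4.41 and 4.20 against 5.06, 4.98 and 5.11, a difference of 0.85. By contrast, the ratio of SOD1 to SOD2 was 1.65 ± 0.23 in the control libraries and 1.61 ± 0.084 in the Sev libraries (SD, n = 3). The ratio of PRDX3 to PRDX5 was 0.75 ± 0.12 and 0.64 ± 0.18 (SD, n = 3), and in both of these pairs the groups overlapped.

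**Figure D3:**
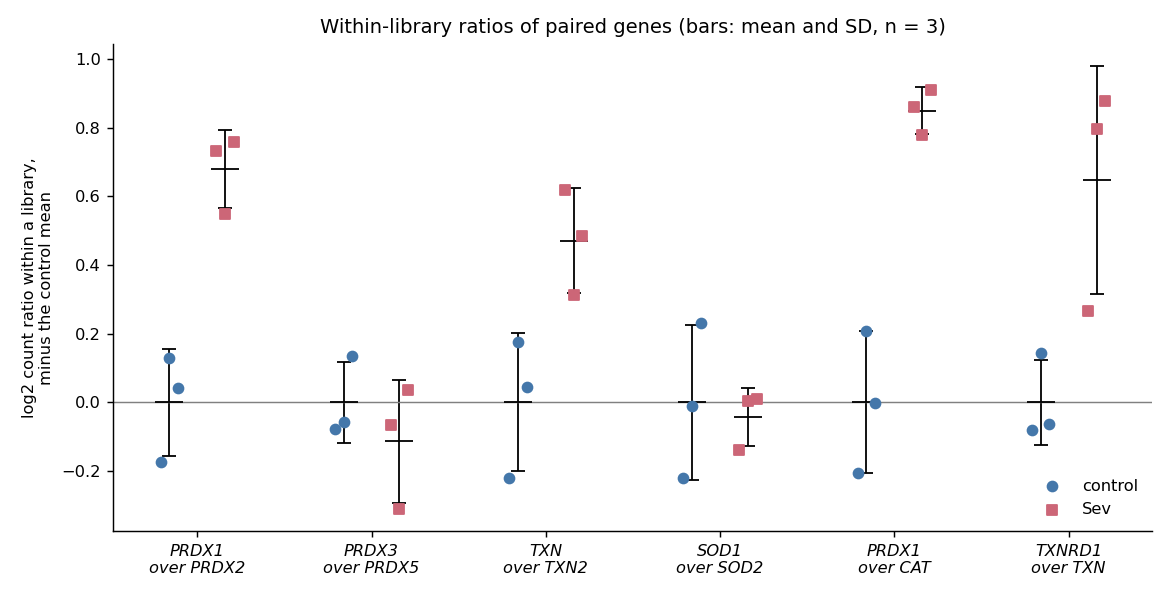
The y axis gives the log2 ratio of the counts of a pair of genes within a library, minus the control mean of that pair, with control libraries as circles, Sev libraries as squares, and bars for the mean and SD, n = 3. The groups are apart for PRDX1 over PRDX2 (by 0.68), TXN over TXN2 (0.47), PRDX1 over CAT (0.85) and TXNRD1 over TXN (0.65), and overlap for SOD1 over SOD2 and PRDX3 over PRDX5.

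Levels of different genes were compared as FPKM, which divides by gene length and, here, by library size without TMM factors. In the control libraries PRDX1 stood far above the others at 410 ± 50.1 FPKM, followed by PRDX2 at 85.4 ± 1.55, PRDX6 at 77.9 ± 1.11, PRDX5 at 62.9 ± 5.25, TXN at 60.5 ± 9.91 and SOD1 at 31.7 ± 3.84 (SD, n = 3). Below these came PRDX3 at 26.8 ± 1.67, TXN2 at 12.4 ± 0.604, CAT at 9.30 ± 0.285 and SOD2 at 1.23 ± 0.171 FPKM (SD, n = 3). The libraries of neighbours in this order overlapped for PRDX5 and TXN and for SOD1 and PRDX3. In the Sev libraries PRDX1 was at 570.4 ± 37.7 FPKM, PRDX6 at 83.1 ± 4.16, TXN at 79.4 ± 4.89, PRDX2 at 74.5 ± 1.16, PRDX5 at 60.9 ± 0.850 and SOD1 at 36.3 ± 0.758 (SD, n = 3). PRDX3 at 24.1 ± 2.59, TXN2 at 11.8 ± 0.527, CAT at 7.21 ± 0.222 and SOD2 at 1.46 ± 0.0735 FPKM closed the order (SD, n = 3). Under Sev the libraries of PRDX6 and TXN overlapped, and those of TXN and PRDX2. PRDX2 was above PRDX6 in every control library (84.2 to 87.2 against 76.6 to 78.6 FPKM) and below it in every Sev library (73.2 to 75.4 against 78.3 to 85.5 FPKM). The SOD2 row has an exon union of 16493 bases, and its FPKM is low for that length.

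The peroxiredoxins were also described as shares of their summed FPKM, with PRDX4, the peroxiredoxin of the endoplasmic reticulum, added to make 6. PRDX1 made up 57.6%, 62.2% and 61.3% in the control libraries and 69.2%, 67.5% and 69.2% in the Sev libraries, or 60.3% ± 2.43 against 68.6% ± 0.966 (SD, n = 3), a difference of 8.29 percentage points. PRDX2 went from 12.6% ± 0.868 to 8.98% ± 0.596 and PRDX6 from 11.6% ± 1.12 to 10.0% ± 0.026 (SD, n = 3). PRDX5 went from 9.30% ± 0.708 to 7.35% ± 0.499 and PRDX3 from 3.96% ± 0.104 to 2.90% ± 0.178 (SD, n = 3). For these 5 the groups did not overlap, while PRDX4 was at 2.20% ± 0.084 and 2.13% ± 0.036 (SD, n = 3) with overlap. Since shares sum to a whole, a larger share of PRDX1 lowers the others.

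**Figure D4:**
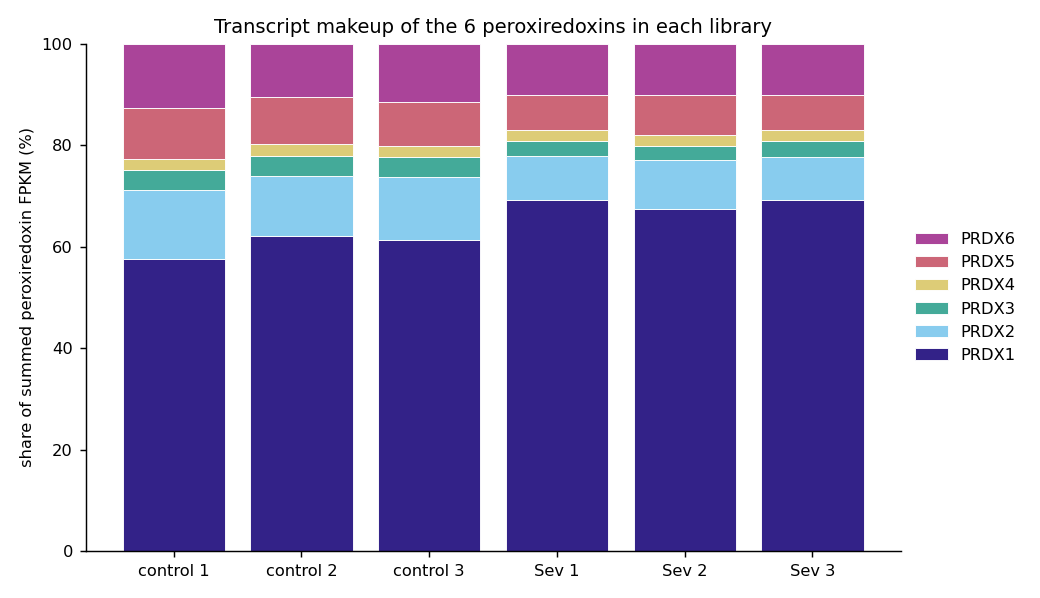
Each bar is a library, and its colours give the share in percent of the summed FPKM of 6 peroxiredoxins (y axis from 0 to 100%). The PRDX1 band at the base takes 57.6% to 62.2% in control and 67.5% to 69.2% after Sev.

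The partners that serve this cycle were counted in a list of 24 genes, all tested. Of these, 9 were called higher and 2 lower (45.8% against 43.7% of all features), with a median log2 fold change of 0.17, while by library size only 6 were higher and 6 lower. The median was 0.084 without Sev 3, 0.091 without control 3 and 0.025 by library size only. TXNRD1, the cytosolic thioredoxin reductase, had a CPM of 157, 264 and 187 in the control libraries and 368, 487 and 521 in the Sev libraries, without overlap. Its log2 fold change was 1.18 with a standard error of 0.21 (adjusted p = 0.00306), and the log2 ratio of TXNRD1 to TXN counts went from 1.48 ± 0.12 to 2.13 ± 0.33 (SD, n = 3). SRXN1, sulfiredoxin, which restores overoxidized peroxiredoxins, had a CPM of 27.0, 32.4 and 31.6 against 57.4, 44.6 and 69.8 (log2 fold change 0.92, standard error 0.16, adjusted p = 0.00342). SESN2, a stress-induced sestrin, went from 18.2 ± 1.25 to 45.2 ± 9.21 CPM (SD, n = 3), with a log2 fold change of 1.31 and a standard error of 0.15 (adjusted p = 0.000559). MAP3K5, the ASK1 kinase that reduced thioredoxin holds inactive, went from 57.4 ± 1.44 to 82.0 ± 1.76 CPM (SD, n = 3), with a log2 fold change of 0.51 and a standard error of 0.073 (adjusted p = 0.00126). GLRX5, a mitochondrial glutaredoxin of iron-sulfur cluster assembly, had a log2 fold change of 0.54 with a standard error of 0.094 (adjusted p = 0.00312). These calls of TXNRD1, SRXN1, SESN2, MAP3K5 and GLRX5 held without each library in turn. The 2 genes of the list called lower were MSRB1 (log2 fold change -0.48, adjusted p = 0.00983) and MSRB2 (-0.49, adjusted p = 0.0159).

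PRDX4 went from 32.6 ± 4.63 to 42.5 ± 0.990 CPM (SD, n = 3), with a log2 fold change of 0.38 and a standard error of 0.12 (adjusted p = 0.0286). Its call held without control 2 (adjusted p = 0.0157) or Sev 2 (0.0486), and not without control 1 (0.0779), control 3 (0.0856), Sev 1 (0.0875) or Sev 3 (0.0697). It was called in 6 of 12 other settings, and by library size only its log2 fold change was 0.25 (adjusted p = 0.108). TXNRD2, the mitochondrial reductase, was at 26.2 ± 2.999 and 25.2 ± 3.24 CPM (SD, n = 3), with a log2 fold change of -0.058 and a standard error of 0.13 (adjusted p = 0.746). TXNIP, which binds and inhibits thioredoxin, had a CPM of 686, 237 and 386 in the control libraries and 240.4, 216 and 300.1 in the Sev libraries. Control 1 was far above the rest and the groups overlapped, with a log2 fold change of -0.79 and a standard error of 0.34 (adjusted p = 0.0937). Without control 1 the log2 fold change of TXNIP was -0.31 (adjusted p = 0.316), and without control 2 it was -1.09 (adjusted p = 0.0153).

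The dismutases need their metals, and 14 genes of copper, manganese and metallothionein handling were listed with SOD3, of which 12 were tested. There were 4 called higher and 3 lower (58.3% against 43.7% of all features), with a median log2 fold change of 0.22, and by library size only 1 was higher and 3 lower, with a median of 0.074. CCS, the chaperone that loads copper into SOD1, had a CPM of 11.9, 10.2 and 13.0 in the control libraries and 5.63, 6.20 and 7.29 in the Sev libraries. All Sev libraries were below all controls, with a log2 fold change of -0.88 and a standard error of 0.16 (adjusted p = 0.00347), while SOD1 itself was not lower in any Sev library. The copper exporters fell too: ATP7B went from 6.81 ± 0.775 to 2.66 ± 0.114 CPM (SD, n = 3), a log2 fold change of -1.36 with a standard error of 0.16 (adjusted p = 0.00054). ATP7A had a log2 fold change of -0.71 with a standard error of 0.12 (adjusted p = 0.00284). Called higher were SLC31A1 (log2 fold change 0.31, adjusted p = 0.0136), ATOX1 (0.34, adjusted p = 0.0197) and SLC25A3 (0.32, adjusted p = 0.0126). By library size only SLC31A1, ATOX1 and SLC25A3 were not called. MT1X, a metallothionein, rose from 27.1 ± 3.08 to 54.0 ± 14.6 CPM (SD, n = 3), a log2 fold change of 0.996 with a standard error of 0.19 (adjusted p = 0.00448), and its family members are alike enough in sequence that reads may be shared. The calls of CCS, ATP7A, ATP7B and MT1X held without each library in turn. SOD3, the extracellular dismutase, had 0, 0 and 4 counts in the control libraries and 4, 14 and 12 in the Sev libraries, too few to be tested.

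Enzymes that make superoxide or hydrogen peroxide were listed with 34 genes, of which 22 were tested. Of those 9 were called higher and 4 lower (59.1% against 43.7% of all features), a share that cannot be read as support. NCF1, XDH, DUOX2 and DUOXA2, all 4 called higher, had fewer than 10 counts in at least 1 control library. With at least 10 counts in every library 5 were called higher and 4 lower, and by library size only 8 and 5. The median log2 fold change of 0.037 was 0.31 without Sev 1 and -0.038 without Sev 3, so it has no settled sign. XDH, xanthine dehydrogenase, had 13, 8 and 15 counts in the control libraries and 227, 323 and 202 in the Sev libraries. NCF1, a subunit of the phagocyte NADPH oxidase, had 19, 6 and 11 counts against 145, 138 and 174. XDH and NCF1 were near the lower limit of the expression filter in control cells, entered the test through the Sev libraries and were not tested with at least 10 counts in every library, so their counts are given as a description, with no fold change or p. NCF1 also has near-identical copies in the genome that may share its reads. AOX1, aldehyde oxidase, had 10, 22 and 16 counts against 65, 79 and 75 (log2 fold change 2.35, standard error 0.32, adjusted p = 0.00112). SMOX, spermine oxidase, went from 17.7 ± 2.68 to 47.8 ± 11.7 CPM (SD, n = 3), a log2 fold change of 1.43 with a standard error of 0.19 (adjusted p = 0.00095). NOX4 had 0 counts in every library, and NOX1, NOX3, NOX5 and CYBA had at most 14 and were not tested.

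Catalase works in peroxisomes, and 32 genes of peroxisome import, membrane and beta-oxidation were listed, all tested. Here 2 were called higher and 11 lower (40.6% against 43.7% of all features), with a median log2 fold change of -0.091, and by library size only 1 was higher and 12 lower, with a median of -0.23. Without control 1, Sev 1 or Sev 3 the median was -0.15, -0.14 and -0.14. HSD17B4, the D-bifunctional enzyme of beta-oxidation, fell from 87.6 ± 3.89 to 60.5 ± 1.65 CPM (SD, n = 3), a log2 fold change of -0.53 with a standard error of 0.076 (adjusted p = 0.00132). EHHADH, the L-bifunctional enzyme, fell from 9.66 ± 0.856 to 3.08 ± 0.993 CPM (SD, n = 3), a log2 fold change of -1.65 with a standard error of 0.24 (adjusted p = 0.0015). PXMP4, a membrane protein, and ABCD4, a transporter of the peroxisomal family that works in lysosomes, had log2 fold changes of -0.90 (standard error 0.14, adjusted p = 0.0018) and -0.84 (standard error 0.14, adjusted p = 0.00228). These 4 calls held without each library in turn, while CAT itself missed the threshold.

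**Figure D5:**
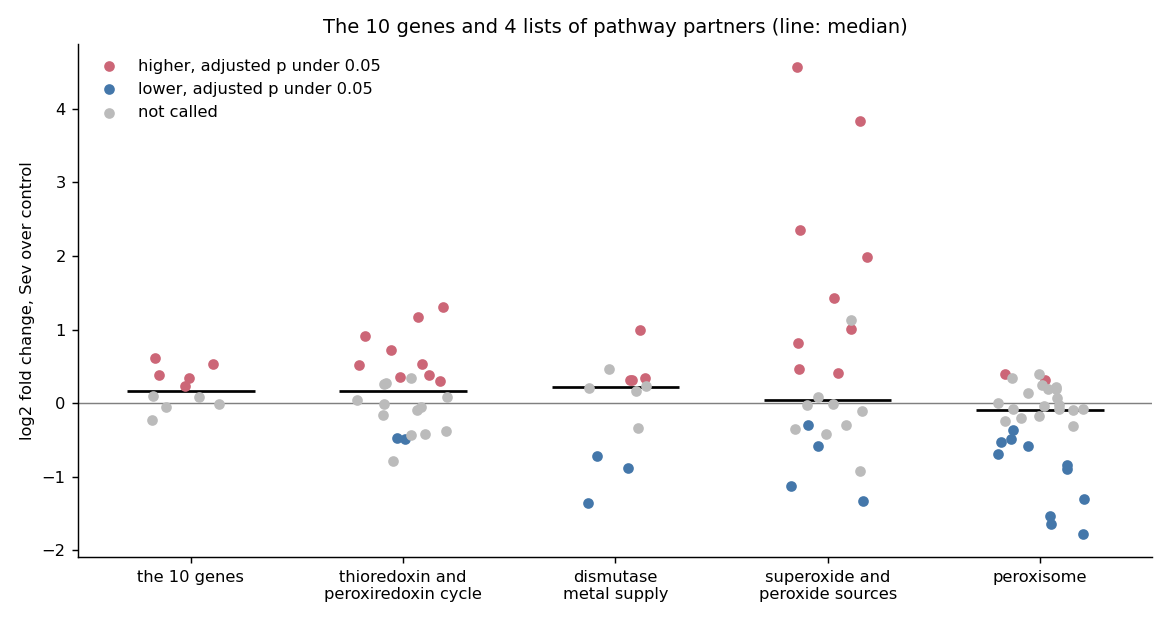
Each point is a tested gene, and the y axis gives its log2 fold change of Sev over control in edgeR with TMM factors; columns are the 10 genes and the 4 lists, lines are medians, and colour marks an adjusted p under 0.05 in either direction. The 10 genes, with SOD2 by the row with more counts, lie between -0.22 and 0.62, while the highest points among the sources of superoxide and peroxide are genes with few control counts.

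Sequences upstream of start sites were taken from RefSeq on GRCh38.p14 and were present for 6 of the 10 genes (SOD2, TXN, PRDX3, CAT, PRDX5 and PRDX2), in 10 windows of 250 bases. PRDX1, PRDX6 and SOD1, which were called higher, and TXN2 had no window and were not searched. Motifs, chosen after the values were seen, were searched on both strands. The antioxidant response element core TGACNNNGC was in 0 of the 10 windows, beside 10.9% of all 35116 windows of that length, and in both windows of TXNRD1, at 99 and 102 bases before the start. The windows of SRXN1 and PRDX4, partners that were also called higher, held 0. The CCAAT box (CCAAT) was in 3 of the 10 (32.0% of all), the GC box (GGGCGG) in 10 of the 10 (42.6% of all) and the TATA box core (TATAAA) in 1 of the 10, that of TXN (10.7% of all). SOD2 and PRDX5 have more than 1 window each, and those of PRDX5 overlap, so the 10 windows are not independent. By gene, the GC box was in 6, the CCAAT box in 2 and the TATA box core in 1. The GC content was 60.4% in the PRDX3 window and 80.8% in a window of SOD2. The shares over all windows were not matched for GC content. A match is a description of letters, and no match says only that these letters are not in the window. The stretches of TXN, which was called higher, of CAT, which lay lower in every Sev library, and of TXNRD1, the partner with the response element core, are shown for comparison, 5′ to 3′ on the strand of the gene, with motif matches on either strand in capitals. Bases that GENCODE 29 places in an exon were left out, which for TXN removes the 133 bases nearest the RefSeq start, with its TATA box core.
TXN (chr9:110256641-110256757, minus strand): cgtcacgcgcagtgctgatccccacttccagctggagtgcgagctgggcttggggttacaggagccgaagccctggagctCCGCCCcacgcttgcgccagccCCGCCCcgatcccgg
CAT (chr11:34438684-34438924, plus strand): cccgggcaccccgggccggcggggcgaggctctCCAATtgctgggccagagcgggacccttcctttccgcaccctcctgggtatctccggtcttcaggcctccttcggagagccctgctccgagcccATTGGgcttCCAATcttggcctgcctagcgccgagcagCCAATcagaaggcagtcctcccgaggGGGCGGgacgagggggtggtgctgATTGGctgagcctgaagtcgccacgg
TXNRD1 (chr12:104215529-104215778, plus strand): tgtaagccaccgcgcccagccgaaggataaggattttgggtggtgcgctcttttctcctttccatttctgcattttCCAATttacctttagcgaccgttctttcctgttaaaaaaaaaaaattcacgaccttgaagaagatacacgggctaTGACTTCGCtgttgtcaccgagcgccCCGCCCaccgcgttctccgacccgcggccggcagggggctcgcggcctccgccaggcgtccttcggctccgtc
The TXN stretch holds 2 GC boxes, both read on the other strand as CCGCCC. That of CAT holds 5 CCAAT boxes, of which 2 are read as ATTGG, and 1 GC box. The TXNRD1 stretch holds 1 CCAAT box, 1 GC box and the response element core.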

How the data were processed

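The authors sequenced strand-specific RNA libraries of U251 cells. They deposited raw counts per gene, without normalization, and FPKM for the same 61496 features (60564 Ensembl identifiers and 932 assembled ones). The submitters' processing notes name bcl2fastq 2.19, featureCounts and hg18. The strand and multi-mapping settings of the counting are not given in the sources used here, and the identifiers are newer than hg18, so positions are those that GENCODE 29 gives them on GRCh38. The SOD2 identifier of the symbol table was not among the rows, so both rows that GENCODE 29 names SOD2 were used, the one with more counts as the main row. Reads of copies, overlapping and antisense genes could be split or lost by the counting.

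The test on the counts was that of edgeR 4.0.16 in R 4.3.3 (filterByExpr, TMM, glmQLFit, glmQLFTest, 2 groups, no covariate), with Benjamini-Hochberg adjustment over all 27514 features tested and a limit of 0.05. CPM is TMM-normalized with no prior count. The standard error is the absolute log2 fold change over the square root of the F statistic. The precision is set by 3 libraries per group more than by the 38624292 to 46318311 counts of a library. Alternatives were DESeq2 1.42.0 (size factors, Wald test), library size only, the filter replaced by none or by a minimum of 10 counts in every library, protein-coding genes only, members summed with their named copies, the replicate block, each library left out, and limma 3.58.1 on log2(FPKM + 1) or log2(FPKM + 0.1) at an FPKM of at least 0.5 in 3 libraries, the first also without that filter. Summing both SOD2 rows, ratios from FPKM and peroxiredoxin shares from counts were added after the data were seen. The edgeR fit was tested on simulated data. Any 2 libraries of a group differed beyond sampling noise in 51.5% to 70.8% of genes, so none was a duplicate.

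The 10 genes, the 4 lists and the tests were chosen with earlier results of these data known. Named were the 10 genes, PRDX4, TXNRD1, TXNRD2, SRXN1, TXNIP, CCS and SOD3, and in each list the 4 called genes with the smallest p-value. Other list genes were added to give calls in the other direction or genes with few counts.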

Additional observations from a re-analysis of the deposited data

How the results depend on the processing

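The calls of 5 genes higher and 0 lower depended on the processing. Called higher were 2 genes by library size only, 2 without the expression filter, 3 with protein-coding genes only, and 2, 1 and 1 with limma on log2(FPKM + 1), on log2(FPKM + 0.1) and on log2(FPKM + 1) without a filter. Called lower were 2, 0 and 1, and then 1, 1 and 2, in the same order, and 1 with at least 10 counts in every library. Without single libraries 1 to 4 were called higher and 0 to 0 lower. PRDX1 was called in every setting. Copies added to the members, or both SOD2 rows summed, left 5 higher and 0 lower.

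No pairing of the samples by replicate number is stated. Same-numbered libraries correlated at -0.0072, 0.0035 and 0.027 in their deviations from the group means, and control 1, Sev 1 and Sev 2 correlated best with another number. Same and different numbers together ran from -0.038 to 0.032, too small to decide whether cultures were paired. With the replicate block 4 members were called higher and PRDX6 was lost (adjusted p = 0.0709), and 2 sources of superoxide and peroxide were called lower and 1 peroxisome gene higher.

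Over all features, 6094 higher became 3584, 3269 and 3447 with limma on log2(FPKM + 1), on log2(FPKM + 0.1) and with protein-coding genes only, and 5920 lower became 3433 with the last. Past the fold threshold, 3147 higher became 1691 with at least 10 counts in every library, 577, 1460 and 574 with limma (in the order above, the last without a filter) and 1275 with protein-coding genes, and 3315 lower became 2148, 690, 686 (the last without a filter) and 1234. Without single libraries these counts were 4780 to 5709 higher, 4438 to 5521 lower, 3207 to 3501 higher past the fold and 2989 to 3554 lower past the fold.

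In the cycle list, genes called lower went from 2 to 6 by library size only, to 6, 5 and 6 with limma and to 4 with protein-coding genes. In the metal list, genes called higher went from 4 to 1 by library size only and to 1, 1 and 1 with limma. Sources called higher went from 9 to 5 with at least 10 counts and to 5 with limma on log2(FPKM + 0.1). Peroxisome genes called higher went from 2 to 1 by library size only, without the filter and with protein-coding genes, and to 1, 0 and 1 with limma. Without single libraries the lists had 6 to 9 higher and 2 to 3 lower (cycle), 3 to 4 and 3 to 3 (metal), 7 to 9 and 2 to 4 (sources), and 1 to 2 and 9 to 11 (peroxisome).

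Some small values changed sign, and the cause was not tested. PRDX3 was at 0.00086 with DESeq2 size factors, 0.00089 with the Wald test, 0.029 without control 2 and 0.049 without Sev 2 (-0.088 to 0.049 over the left-out libraries). PRDX5 was at -0.045 by library size only and -0.043, -0.044 and -0.043 with limma, and TXN2 at -0.066, -0.064, -0.068 and -0.064. TXNRD2 was at 0.034 without control 3 and 0.00037 without Sev 3 (-0.17 to 0.034 over the left-out libraries). The median of all features was 0.0095 and 0.0097 with DESeq2, 0.061 without the filter, and 0.0058, 0.0015 and 0.0059 without control 1, 2 and 3 (-0.015 to 0.0059 over the left-out libraries). The median of the sources was -0.11 by library size only, -0.030 with at least 10 counts, -0.13 and -0.15 with limma, -0.0067 with protein-coding genes, -0.020 without control 3 and -0.038 without Sev 3 (-0.038 to 0.31 over the left-out libraries). The SOD1 to SOD2 ratio differed by 0.074 without control 3 and 0.0069 without Sev 1.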
